A study of Mus musculus with 7 samples.

Results

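The 9 genes described here encode basic helix-loop-helix (bHLH) factors that are switched on in particular tissues and act by pairing with an E protein. They are Tcf21, Msc, Twist1, Twist2, Hand1, Hand2, Scx, Tcf15 and Tal1, picked by gene symbol, and they are 9 of the 22363 genes analysed in cultured fetal mouse kidneys. In 3 libraries E2-2 was deleted and in 4 it was wildtype. All 7 libraries, the wildtype ones included, came from C57BL/6 kidneys with activated beta-catenin (which carries the canonical Wnt signal), so there is no kidney without that activation in the comparison. The mothers were given tamoxifen, at 2 mg for each 40 g of body weight, at 10.5 days post coitum, the age at which the kidneys were taken, and culture lasted 3 to 4 days. The labels name neither the Cre driver nor the cells that carry the recombination, and they do not give the deleted exons. Whether libraries stand for separate embryos is not stated either, so each p-value measures only the spread between these libraries, which may be technical. Whole kidneys were sequenced: in such bulk samples, fewer cells of a type and less RNA per cell cannot be told apart.

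E proteins (E2-2, E2A and HEB, encoded in the mouse by Tcf4, Tcf3 and Tcf12) are made in most cells. A tissue-specific partner joins one of them through the helix-loop-helix, and the pair binds the E-box, written CANNTG, in enhancers and promoters. Id proteins also bind E proteins but have no DNA-binding region, so they hold E proteins away from both DNA and their partners. Of the partners, Tcf21 is known from the mesenchyme and podocytes of the developing kidney, the Twist and Hand factors from mesenchyme, heart, limb and sympathetic neurons, Scx from tendon, Tcf15 from somites, Msc from muscle precursors and Tal1 from blood and endothelium.

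Levels are FPKM (sequenced fragments for each kilobase of a transcript, relative to all mapped fragments of the library), a per-length unit that allows different genes to be set side by side. Means are given ± SD over libraries (n = 3 E2-2 deleted, n = 4 E2-2 wildtype), and a difference is the mean of deleted minus that of wildtype libraries on the log2(FPKM + 1) scale. The depth inferred from the deposited intervals was 14.6 to 26.6 M (mega-fragments) per library. Kidney genes were present: Wt1, a factor of nephron progenitors and podocytes, was at 54.4, 19.4 and 39.9 FPKM in the deleted libraries and at 39.0, 39.3, 57.8 and 66.4 FPKM in the wildtype libraries. E2-2 deleted replicate 2 stood apart. Its mean correlation with the other libraries, over 5179 genes, was 0.848, against 0.899 to 0.940 for the other 6. The nephron progenitor factor Six2 was at 2.69 FPKM in it, against 62.8 and 33.5 FPKM in the other deleted libraries and 29.0 to 74.8 FPKM in the wildtype libraries. Differences without it are therefore given beside each member. The deposited library names begin with BI (deleted replicates 1 and 2, wildtype replicates 1 and 2) or BM (the rest); what the prefix stands for is not given in the labels. A BM difference rests on 1 deleted library against 2 wildtype ones. Tcf4, the targeted gene, was at 33.5, 41.7 and 42.0 FPKM in the deleted libraries and at 48.8, 58.1, 28.7 and 39.2 FPKM in the wildtype libraries. A level over the whole gene cannot show the loss of some exons, so it does not check the genotype.

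Promoter sequences were examined because the E-box is the site that E2-2 and these partners share. RefSeq promoters (GRCm38.p6, 250 bases before to 50 bases after a gene's start) were held for 5 of the 9 members: Tcf21, Twist1, Twist2, Hand2 and Tal1. CANNTG, which reads the same on both strands, occurred in 72.3% of all 32851 promoters of this length. It was found 2 times in the Hand2 promoter, at -246 and at -235, counted from the start, and once in the promoter of the first of both Tal1 starts, at base 11 past it; the end of that Tal1 window was not found in a GENCODE Tal1 transcript, while that of the other start was. The first Hand2 match and the Tal1 match are both CATCTG, a form that CANNTG includes and that occurred, on either strand, in 17.2% of all promoters. The letters CANNTG were not in the Tcf21, Twist1 and Twist2 windows or in that of the other Tal1 start. Such matches describe the letters only. The promoters with a match are printed, 5' to 3' with each E-box in capitals, beside that of Tcf21, the member with the highest level, which has none. They lie at chr8:57320733-57321032 (plus strand, Hand2), chr4:115056176-115056475 (plus strand, Tal1) and chr10:22820094-22820393 (minus strand, Tcf21).
Hand2 promoter: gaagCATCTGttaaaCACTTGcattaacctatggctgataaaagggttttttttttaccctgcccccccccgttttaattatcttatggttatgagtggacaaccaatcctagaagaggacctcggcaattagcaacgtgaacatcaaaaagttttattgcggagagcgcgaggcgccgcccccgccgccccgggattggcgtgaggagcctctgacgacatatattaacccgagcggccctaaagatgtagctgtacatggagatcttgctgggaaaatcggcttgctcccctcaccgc
Tal1 promoter, first start: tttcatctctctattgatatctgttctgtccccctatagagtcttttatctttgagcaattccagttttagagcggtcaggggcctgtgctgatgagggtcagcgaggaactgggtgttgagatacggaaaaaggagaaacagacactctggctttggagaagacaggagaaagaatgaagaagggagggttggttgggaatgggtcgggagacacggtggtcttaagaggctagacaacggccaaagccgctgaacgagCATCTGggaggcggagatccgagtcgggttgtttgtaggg
Tcf21 promoter: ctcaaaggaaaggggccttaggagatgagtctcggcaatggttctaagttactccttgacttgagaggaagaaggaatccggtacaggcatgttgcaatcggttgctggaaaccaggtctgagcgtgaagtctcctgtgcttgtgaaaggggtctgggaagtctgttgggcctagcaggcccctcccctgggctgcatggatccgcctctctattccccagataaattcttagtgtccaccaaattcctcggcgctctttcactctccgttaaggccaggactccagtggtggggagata

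Tcf21 was the most abundant member, at 131 ± 29.1 FPKM over all 7 libraries (SD, n = 7), above every other member in 7 of 7 libraries. The next in order were Twist1 (21.8 FPKM on average), Twist2 (14.3 FPKM), Scx (10.4 FPKM) and Hand2 (6.01 FPKM). Tcf15 (2.65 FPKM), Tal1 (2.61 FPKM) and Hand1 (1.46 FPKM) followed, and Msc was lowest at 0.489 FPKM. The lowest Tcf21 library (83.5 FPKM) was above the highest Twist1 library (26.9 FPKM). For every other pair of neighbours in this order the ranges over libraries overlapped, although Twist1 was above Twist2 within each of the 7 libraries. Tcf21 made up 74.4, 58.3 and 63.2% of the members' summed FPKM in the deleted libraries, against 67.3, 67.6, 72.4 and 73.1% in the wildtype libraries.

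**Figure D1:**
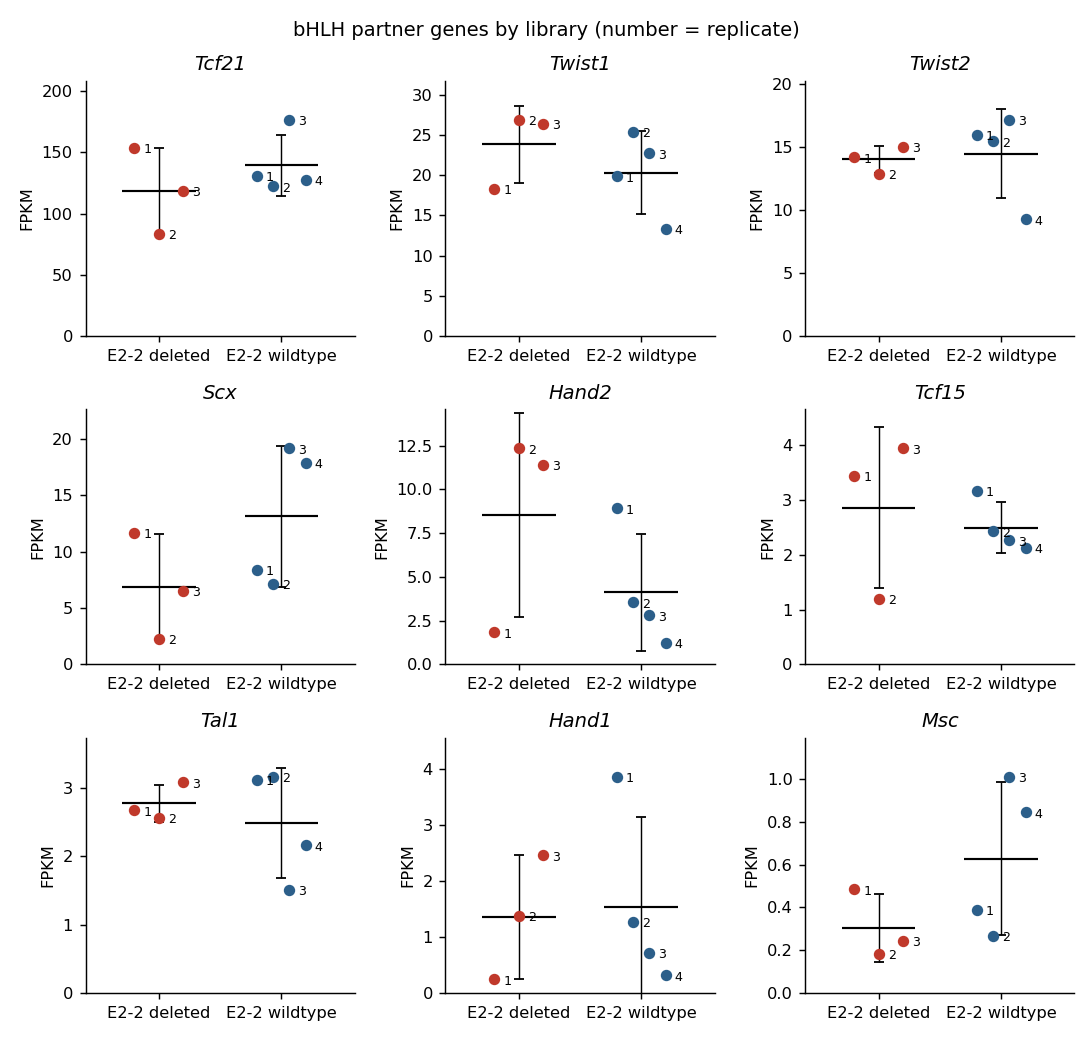
FPKM (vertical axes, linear, from 0) of the 9 members in each library, E2-2 deleted (red, n = 3) left of E2-2 wildtype (blue, n = 4), with replicate numbers, means (lines) and SD (bars; the lower bar of Hand1 in the wildtype group is cut at 0). For all 9 members the points of both genotypes overlap.

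None of the members changed past the threshold, and the levels of all 9 overlapped between the genotypes. With a mean of at least 1 FPKM, 8 members entered the limma test of 13469 genes, which left out Msc. At an adjusted p under 0.05, limma called 0 of the 8, with 4 positive and 4 negative differences; over all genes it called 0 as well (0.0%). At an unadjusted p under 0.05 it held 0 of the 8, against 605 of all genes (4.49%). Levels that did not overlap between the genotypes were found for 0 of the 8, against 658 of all genes (4.89%). The median difference was 0.03 over the 8 members and -0.05 over all genes tested. The spread within a genotype was wider for the members: its median on the log2 scale was 0.39 over the 8 members and 0.21 over all genes tested. The intervals below therefore state how large a difference of each member these 7 libraries leave possible.

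**Figure D2:**
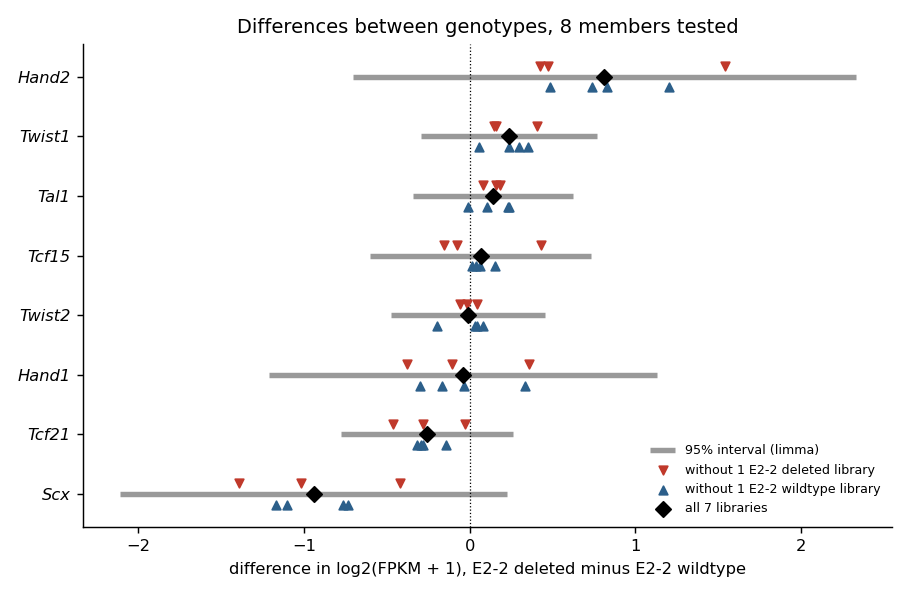
Difference in log2(FPKM + 1), E2-2 deleted minus E2-2 wildtype, of the 8 members tested (black diamonds), with the 95% confidence interval of limma (grey bars) and the difference without each deleted (red) or wildtype (blue) library. Every interval spans 0, from the widest, Hand2 (-0.70 to 2.33), to Twist2 (-0.47 to 0.46).

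Tcf21 (chromosome 10, 22537079 to 22539934), which the developing kidney needs for normal branching and podocyte formation, was high in every library. It was at 154, 83.5 and 119 FPKM in the deleted libraries and at 131, 122, 177 and 128 FPKM in the wildtype libraries. Wildtype replicate 3 was highest and deleted replicate 2 lowest, and the remaining 5 libraries of both genotypes lay between 119 and 154 FPKM. The means were 119 ± 34.98 FPKM in deleted and 139 ± 25.0 FPKM in wildtype libraries. The difference was -0.26 (limma: SE 0.22, 95% interval -0.78 to 0.26, adjusted p = 0.795; exact permutation p = 0.343). Without deleted replicate 2 it was -0.03, with a deleted mean of 136 FPKM. Within the BI and BM libraries it was -0.16 and -0.34.

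Msc (chromosome 1, 14743429 to 14746047), also called musculin, is the closest relative of Tcf21 and a repressor in muscle precursors. It was at 0.485, 0.183 and 0.243 FPKM in the deleted libraries and at 0.389, 0.266, 1.01 and 0.845 FPKM in the wildtype libraries. The 2 highest libraries were wildtype replicates 3 and 4, and the other wildtype libraries lay among the deleted ones. These levels rest on 16, 5 and 9 inferred fragments in the deleted libraries, against 11, 6, 40 and 29 in the wildtype libraries, so counting error is large. The difference was -0.30 (exact permutation p = 0.229), -0.23 without deleted replicate 2, and -0.0007 within BI against -0.63 within BM. Of 10 skeletal muscle genes listed with it, 6 averaged under 1 FPKM. The determination factor Myf5 and Pax7, of satellite cells, were each listed at 0 in 6 of 7 libraries. Myog, which turns on muscle differentiation, averaged 0.328 FPKM and reached 1.15 FPKM in wildtype replicate 2. The muscle protein gene Des, also made by other contractile cells, averaged 24.8 FPKM, Tnnt1 2.80 FPKM, Actc1 2.36 FPKM and Acta1 1.16 FPKM.

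The Twist pair are factors of mesenchyme and neural crest that hold back differentiation. By the ratio of the highest to the lowest library they were the steadiest of the set, at 2.02 for Twist1 and 1.85 for Twist2. Tal1 (2.095) and Tcf21 (2.11) were close to Twist1. Twist1 (chromosome 12, 34642536 to 34644696) was at 18.3, 26.9 and 26.4 FPKM in the deleted libraries and at 19.8, 25.4, 22.7 and 13.3 FPKM in the wildtype libraries. Wildtype replicate 4 was lowest, and the rest of the wildtype libraries lay within the deleted range. The means were 23.8 ± 4.80 FPKM in deleted and 20.3 ± 5.19 FPKM in wildtype libraries. The difference was 0.24 (limma: SE 0.23, 95% interval -0.29 to 0.77, adjusted p = 0.799; exact permutation p = 0.486). It was 0.15 without deleted replicate 2, -0.02 within BI and 0.57 within BM. Without wildtype replicate 4 it was 0.06.

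Twist2 (chromosome 1, 93698054 to 93744604), a paralog best known from dermis and bone precursors, was at 14.2, 12.9 and 15.0 FPKM in the deleted libraries. It was at 16.0, 15.5, 17.2 and 9.27 FPKM in the wildtype libraries, where replicate 4 was again lowest. The difference was -0.0085 (limma: SE 0.20, 95% interval -0.47 to 0.46, adjusted p = 0.989; exact permutation p = 1.0). The means were 14.1 ± 1.07 FPKM in deleted and 14.5 ± 3.55 FPKM in wildtype libraries, and the difference was 0.05 without deleted replicate 2, -0.20 within BI and 0.23 within BM. The ratio of Twist1 to Twist2 FPKM was 1.29, 2.08 and 1.75 in the deleted libraries, against 1.24, 1.64, 1.32 and 1.44 in the wildtype libraries, which overlap.

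A list of genes linked to Twist1, most of them of mesenchyme, gave 12 positive and 4 negative differences among 16 tested. Of these, 0 were past the threshold and 4 had an unadjusted limma p under 0.05, with a median difference of 0.24. Cdh1 (0.23), a gene of epithelia, was among the positive ones. Over all genes tested, 39.3% of differences were positive, 4.49% had an unadjusted p under 0.05 and the median was -0.05. Those 4 were the homeobox genes Alx4, Msx1 and Msx2, known from skull and limb mesenchyme, and Pdgfra, a growth factor receptor of mesenchyme. Msx2 was at 7.75, 43.3 and 16.3 FPKM in the deleted libraries and at 6.33, 8.64, 2.67 and 2.34 FPKM in the wildtype libraries. Its highest level was in deleted replicate 2, the library that stood apart, and deleted replicate 1 lay within the wildtype range. Alx4 was at 3.36, 13.5 and 6.31 FPKM in the deleted libraries, against 2.58, 3.35, 1.85 and 0.720 FPKM in the wildtype libraries. The limma adjusted p of all 4 was 0.795.

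Hand2 and Hand1, known from heart, limb bud and sympathetic neurons, varied most between libraries by that ratio, 9.998 for Hand2 and 15.8 for Hand1. Scx came next, at 8.35. Hand2 (chromosome 8, 59799780 to 59803314) was at 1.84, 12.3 and 11.4 FPKM in the deleted libraries and at 8.91, 3.55, 2.80 and 1.23 FPKM in the wildtype libraries. The 2 highest libraries were deleted and the lowest was wildtype, but deleted replicate 1 was the second lowest of the 7. The means were 8.53 ± 5.81 FPKM in deleted and 4.12 ± 3.34 FPKM in wildtype libraries. The difference was 0.81 (limma: SE 0.65, 95% interval -0.70 to 2.33, adjusted p = 0.795; exact permutation p = 0.343). It was 0.42 without deleted replicate 2, 1.54 without deleted replicate 1, and 0.48 without deleted replicate 3 or without wildtype replicate 4. Within BI it was -0.13 and within BM 2.09, so the sign turned between the prefixes.

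Hand1 (chromosome 11, 57642215 to 57645649), the paralog, was at 0.244, 1.38 and 2.45 FPKM in the deleted libraries and at 3.86, 1.27, 0.721 and 0.312 FPKM in the wildtype libraries. The ranges of the genotypes overlapped, and both the highest and the second lowest library were wildtype. The lowest level, in deleted replicate 1, rests on 9 inferred fragments. The difference was -0.04 (limma: SE 0.50, 95% interval -1.21 to 1.13, adjusted p = 0.981; exact permutation p = 0.886). It was -0.11 without deleted replicate 2, -0.95 within BI and 1.201 within BM. The ratio of Hand2 to Hand1 FPKM was 7.53, 8.96 and 4.65 in the deleted libraries, against 2.31, 2.80, 3.88 and 3.96 in the wildtype libraries. These ratios did not overlap between the genotypes, but they were singled out after their values were seen and are given without a test.

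Genes of sympathetic neurons also varied widely between libraries. Like Hand1 and Hand2, most were high in deleted replicate 3 and wildtype replicate 1. The same genes were low in deleted replicate 1 and wildtype replicate 4. Elavl4 and Gata3 were among the exceptions. Elavl4 was at 9.62 FPKM in wildtype replicate 4, against 9.23 FPKM in deleted replicate 3. Gata3 was at 14.6 FPKM in deleted replicate 1, against 12.1 FPKM in deleted replicate 3. The summed FPKM of a list of 10 such genes was 39.8, 66.7 and 158 in the deleted libraries, against 132, 68.2, 27.6 and 33.9 in the wildtype libraries. Dbh, the enzyme that makes noradrenaline, was at 1.13, 7.75 and 21.8 FPKM in the deleted libraries and at 23.1, 8.996, 3.47 and 1.90 FPKM in the wildtype libraries. The part of such cells in the Hand levels was not tested. Deleted replicate 2 had the highest Hand2 level of the 7 and a sympathetic sum near that of wildtype replicate 2.

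**Figure D3:**
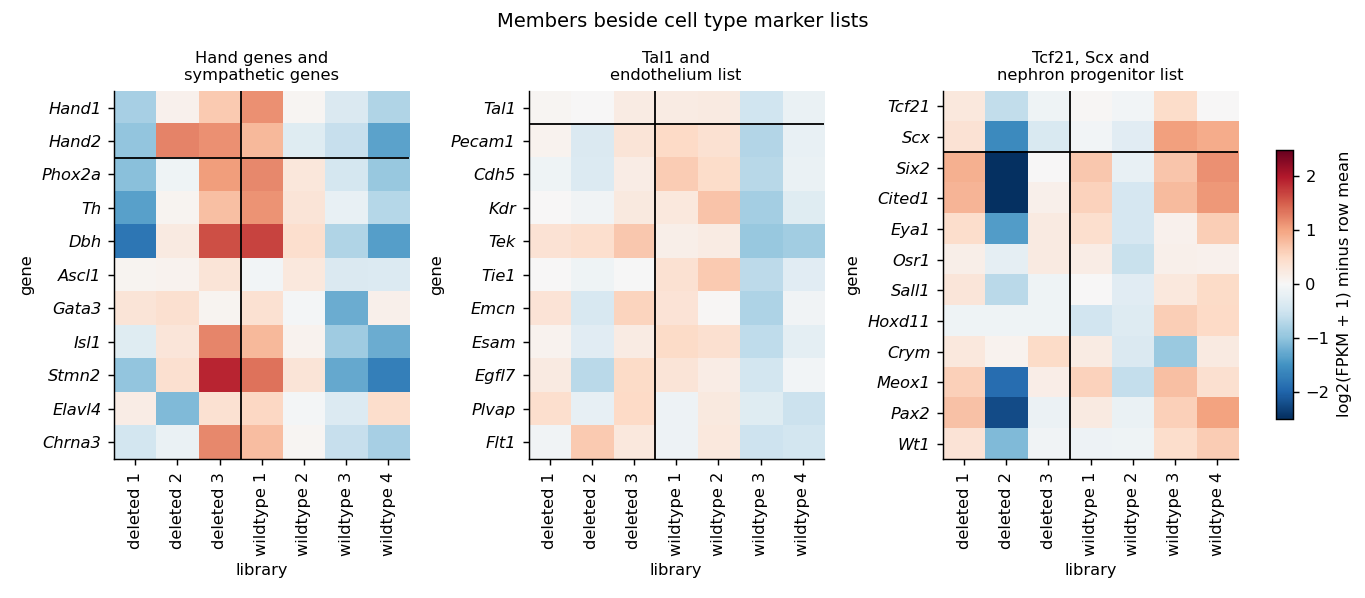
Members (above the black line) and marker genes of sympathetic neurons, endothelium and nephron progenitors (below it) in each library, E2-2 deleted left of E2-2 wildtype; colour is log2(FPKM + 1) minus the gene's mean over the 7 libraries. Hand1, Hand2 and most sympathetic genes are low in deleted replicate 1 and high in deleted replicate 3 and wildtype replicate 1. Six2, Cited1, Meox1 and Pax2 are lowest in deleted replicate 2, while Crym, Hoxd11 and Osr1 are not.

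Scx (chromosome 15, 76287868 to 76289898), scleraxis, which tendon progenitors need, had the lowest unadjusted p of the members. It was at 11.7, 2.29 and 6.54 FPKM in the deleted libraries and at 8.38, 7.16, 19.1 and 17.9 FPKM in the wildtype libraries. Wildtype replicates 3 and 4 were highest and deleted replicate 2 lowest, but deleted replicate 1 was above wildtype replicates 1 and 2. The means were 6.84 ± 4.70 FPKM in deleted and 13.1 ± 6.23 FPKM in wildtype libraries. The difference was -0.94 (limma: SE 0.50, 95% interval -2.11 to 0.23, unadjusted p = 0.1003, adjusted p = 0.795; exact permutation p = 0.2). Without deleted replicate 2 it was -0.42, and within BI and BM it was -0.44 and -1.37. In deleted replicate 2, the summed FPKM of a nephron progenitor list was low together with Scx. That sum was 432, 159 and 331 in the deleted libraries, against 365, 246, 388 and 494 in the wildtype libraries. Not every listed gene was low there. In deleted replicate 2 Crym was at 62.5 FPKM, above wildtype replicates 2 (45.1 FPKM) and 3 (30.4 FPKM). Hoxd11 was at 20.1 FPKM in it, above wildtype replicates 1 (15.2 FPKM) and 2 (17.0 FPKM). The part of nephron progenitor cells in the Scx level was not tested.

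The Scx gene lies inside Bop1, a ribosome assembly gene, in the deposited loci. In the GENCODE annotation of GRCm38 Bop1 is on the opposite strand and 0 of its exons lie over exons of Scx. Bop1 was at 24.1 ± 4.52 FPKM in deleted and 29.7 ± 2.40 FPKM in wildtype libraries, a difference of -0.30 (limma adjusted p = 0.795). Whether the counting used strand is not given in the sources used here, so reads of unspliced Bop1 RNA and of Scx cannot be told apart. The same holds for opposite-strand transcripts that GENCODE places over exons of other members: Hand2os1 over Hand2, Gm29100 over Twist2 and Gm9947 over Msc.

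Of 13 tendon genes tested, 9 differences were positive and 4 negative, with a median of 0.18 and 0 past the threshold, where 39.3% of all genes tested were positive. The 4 with the sign of Scx were Tnmd (-0.42) and the transcription factor genes Mkx (-0.19), Egr2 (-0.15) and Egr1 (-0.05). Fmod, a small collagen-binding proteoglycan, was at 18.6, 76.3 and 35.6 FPKM in the deleted libraries, all above the 8.34, 4.29, 7.66 and 2.75 FPKM of the wildtype libraries. Its difference was 2.59 (SE 0.49, limma unadjusted p = 8.35e-04, adjusted p = 0.795). Tnmd, a tendon gene that Scx is known to switch on, was at 1.86, 1.77 and 3.21 FPKM in the deleted libraries and at 4.17, 2.79, 6.44 and 1.34 FPKM in the wildtype libraries, with overlap.

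Tcf15 (chromosome 2, 151969345 to 151974832), paraxis, which somites need to form an epithelium, was at 3.45, 1.195 and 3.94 FPKM in the deleted libraries. It was at 3.17, 2.43, 2.27 and 2.13 FPKM in the wildtype libraries. The 2 highest libraries and the lowest one were all deleted, with the wildtype libraries between them. The difference was 0.07 (limma: SE 0.29, 95% interval -0.60 to 0.74, adjusted p = 0.949; exact permutation p = 0.8286). Without deleted replicate 2 it was 0.43, with a deleted mean of 3.69 FPKM; it was -0.28 within BI and 0.63 within BM. Of 8 somite genes and Meox partners listed with it, 4 averaged under 1 FPKM, among them the somite factors Pax1 and Pax9. The other 4, Uncx (20.1 FPKM), Meox2 (14.0 FPKM), Meox1 (13.3 FPKM) and Tbx18 (9.60 FPKM), had negative differences, with 0 past the threshold. Uncx had the greatest of these, -1.41, and was lowest in deleted replicate 2 (1.178 FPKM).

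Tal1 (chromosome 4, 114732132 to 114744360), which the formation of blood needs and young endothelium expresses, was at 2.67, 2.57 and 3.08 FPKM in the deleted libraries. It was at 3.12, 3.16, 1.51 and 2.16 FPKM in the wildtype libraries, which lay on both sides of the deleted ones. The means were 2.77 ± 0.273 FPKM in deleted and 2.49 ± 0.799 FPKM in wildtype libraries, from 157 to 300 inferred fragments per library. The difference was 0.14 (limma: SE 0.21, 95% interval -0.34 to 0.63, adjusted p = 0.846; exact permutation p = 0.657). It was 0.18 without deleted replicate 2, -0.19 within BI and 0.54 within BM.

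Tal1 works in a complex with the bridging proteins Lmo2 and Ldb1 and a GATA factor. Of 8 tested genes of that complex and of related blood factors, 5 differences were positive and 3 negative, with a median of 0.15 and 0 past the threshold. Gata2 was at 21.3, 45.0 and 22.9 FPKM in the deleted libraries and at 20.9, 21.5, 10.7 and 11.3 FPKM in the wildtype libraries, a difference of 0.83 (SE 0.34, limma adjusted p = 0.795). Lmo2 was at 39.7, 31.7 and 41.6 FPKM in the deleted libraries and at 36.3, 32.4, 22.2 and 23.5 FPKM in the wildtype libraries. Gata1, the erythroid partner, averaged 0.0469 FPKM over the 7 libraries and was listed at 0 in 4 of them. The endothelium list summed to 330 to 511 FPKM in the deleted and 253 to 550 FPKM in the wildtype libraries. The erythroid list summed to 11.3 to 441 FPKM in the deleted and 45.9 to 226 FPKM in the wildtype libraries.

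Across the 7 libraries, Tal1 varied together with genes of the endothelium. Of 8 relations fixed between members, relatives and marker lists, 7 were computed. Each p is from an exact 2-sided permutation test over pairings, adjusted over the 7. The members and lists were chosen with earlier results of these data known, so these p-values do not come from a choice blind to the data. Tal1 and the mean of the 10 endothelium genes had r = 0.977 (permutation p = 0.00119, adjusted 0.00833) and rho = 0.964 (permutation p = 0.00278, adjusted 0.0195). Their r was 0.932 without wildtype replicates 3 and 4, the farthest from the Tal1 median, 0.9754 after each genotype's mean was subtracted, and 0.990 without deleted replicate 2. Tal1 and Lyl1, its closest paralog, had r = 0.143 (permutation p = 0.739, adjusted 0.739) and rho = 0.0.

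Hand1 and Hand2 had r = 0.836 (permutation p = 0.0230, adjusted 0.0537) and rho = 0.821 (permutation p = 0.0341, adjusted 0.120), which missed the threshold after adjustment. The value was 0.880 without deleted replicate 1 and wildtype replicate 1, 0.932 after each genotype's mean was subtracted, and 0.941 without deleted replicate 2. Tcf21 and the mean of the 12 kidney stroma genes had r = 0.827 (permutation p = 0.00794, adjusted 0.0278) but rho = 0.679 (permutation p = 0.110, adjusted 0.256). Without both deleted replicate 2 and wildtype replicate 3 the r was 0.626, while without either one alone it was 0.882 (deleted replicate 2) or 0.864 (wildtype replicate 3). The relation is not particular to the stroma list. As descriptions, Tcf21 had r = 0.884 with the list of somite genes and Meox partners (4 genes tested) and 0.835 with the nephron progenitor list. The lists are not independent, as Tbx18 is also in the stroma list and Meox1 also in the nephron progenitor list.

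The other relations did not pass. Twist1 and Twist2 had r = 0.668 (permutation p = 0.192, adjusted 0.279) and rho = 0.143 (permutation p = 0.783, adjusted 1.0). That r was -0.65 without deleted replicate 1 and wildtype replicate 4, 0.724 after each genotype's mean was subtracted and 0.830 without deleted replicate 2. Scx and Tcf15 had r = 0.350 (permutation p = 0.454, adjusted 0.530) and rho = -0.0714 (permutation p = 0.906, adjusted 1.0), and the r was -0.665 without deleted replicate 2. Scx and the tendon list had r = -0.545 (permutation p = 0.199, adjusted 0.279) and rho = -0.357 (permutation p = 0.444, adjusted 0.778). That r was -0.870 without deleted replicate 2 and wildtype replicate 3, and -0.136 without deleted replicate 2 alone. The relation of Tcf21 with Msc was not computed, since Msc averaged under 1 FPKM. The BI (4) and BM (3) libraries are too few for a value of their own. With each prefix's mean subtracted, r was 0.971 for Tal1 and the endothelium list, 0.8289 for Hand1 and Hand2 and 0.814 for Tcf21 and the kidney stroma list.

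The genes most like each member over the 7 libraries were sought among 5179 genes, and a high r is easily reached with so many genes and so few libraries. For Tal1 they were Srgap3 (r = 0.988), Prkch (0.987) and Elmo1 (0.987). For Hand1 they were Dbh (0.976), the neurofilament gene Nefl (0.959) and Stmn3 (0.949), which neurons express; for Hand2 they were Fst (0.978), Mtap1b (0.976) and Naalad2 (0.970). Those of Twist1 were Pqlc3 (0.977), Stab1 (0.971) and the collagen gene Col6a2 (0.963), and those of Twist2 were Pdlim1 (0.929), Atf3 (0.895) and Galntl1 (0.881). Tcf21 was most like Vegfb (0.987), Ctu2 (0.981) and Fdx1l (0.977), Tcf15 most like Gimap4 (0.974), Cyp39a1 (0.973) and Akr1e1 (0.937), and Scx most like Wdr5, U2af2 and Wdr74, each at 0.995.

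The E proteins with which these factors pair were present at levels like the members' sum. Tcf12 was at 97.4 ± 12.1 FPKM in deleted and 79.1 ± 7.90 FPKM in wildtype libraries, Tcf3 at 60.4 ± 17.4 and 74.7 ± 7.36 FPKM, and Tcf4 at 39.1 ± 4.85 and 43.7 ± 12.6 FPKM. The Tcf12 levels did not overlap between the genotypes (lowest deleted library 85.4 FPKM, highest wildtype library 84.6 FPKM), as 4.89% of all genes tested did not. Its difference was 0.29 (limma unadjusted p = 0.054, adjusted p = 0.795). Those of Tcf3 and Tcf4 overlapped. The summed FPKM of the 3 E protein genes was 194 to 200 in the deleted and 176 to 209 in the wildtype libraries. The members summed to 206, 143 and 188 FPKM in the deleted libraries and to 195, 181, 244 and 175 FPKM in the wildtype libraries. Partners per E protein transcript were thus 1.05, 0.739 and 0.938 in the deleted libraries, against 0.932, 0.893, 1.39 and 0.861 in the wildtype libraries, with overlap. Transcript ratios say nothing of protein.

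The Id genes, whose proteins compete with the members for E proteins, summed to 414 to 472 FPKM in the deleted and 548 to 668 FPKM in the wildtype libraries. Per E protein transcript this was 2.13 to 2.36 in the deleted and 2.71 to 3.802 in the wildtype libraries. Of the 4 Id genes, 0 passed the threshold. Id1 and Id3 did not overlap between the genotypes, as 4.89% of all genes tested did not. Their differences were -0.50 and -0.49 (limma unadjusted p = 0.0044 and 0.011, adjusted p = 0.795 for both). An unadjusted limma p under 0.05 was thus found for 2 of the 4, against 4.49% of all genes tested. Id4 had the other sign, at 25.9 ± 6.43 FPKM in deleted and 20.5 ± 2.42 FPKM in wildtype libraries, a difference of 0.30.

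Other tissue-specific bHLH genes were mostly silent in these kidneys. Of 38 listed, 36 were in the tables; 32 of them averaged under 1 FPKM and 11 were listed at 0 in every library, among them the neuronal factors Neurog1, Neurod2 and Atoh1. The 4 tested were Atoh8, Lyl1, Bhlhe22 and Ascl4, of which 0 passed the threshold. Atoh8 was highest, at 7.09 ± 1.38 FPKM in deleted and 8.08 ± 1.72 FPKM in wildtype libraries. The list summed to 14.2 to 20.4 FPKM in the deleted and 12.5 to 18.0 FPKM in the wildtype libraries, far below Tcf21 alone.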

How the data were processed

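RNA of cultured kidneys was poly-A selected and made into 7 TruSeq libraries (3 E2-2 deleted, 4 E2-2 wildtype), per the labels' protocols. The authors deposited 1 gene table per library with FPKM values and their intervals, per the file headers. The submitters' processing notes list TopHat2 2.0.4, Cufflinks 2.0.2 and CASAVA 1.8.2. The genome build is not given in the sources used here; coordinates are those of the deposited tables, counted from 1. Replicates are numbered within a genotype by order of deposit, which pairs nothing.

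Rows of a symbol were summed, failed or low-data estimates and loci under 200 bases were left out, and the 13469 genes with a mean of at least 1 FPKM were tested. The genotypes were compared on log2(FPKM + 1), which understates changes of low genes, with limma 3.58.1 in R 4.3.3 (mean-variance trend, 2-sided tests, threshold 0.05 after Benjamini-Hochberg adjustment over the 13469 genes). The exact 2-sided permutation test of a single gene (35 ways to divide 7 libraries into 3 and 4) can give no p below 0.0286. Correlations and permutations used scipy 1.17.1 in Python 3.11.15. The fit was tested on simulated data with differences larger than that of any member. That checks the code and does not show whether differences of the members' size would be found.

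The deposited tables hold no read counts. Fragments per gene were inferred as the square of 2 times the FPKM over the distance to its upper bound; 79.5 to 80.4% of them were whole to within 0.05, where 10% would be by chance. FPKM corrects for depth, but a shallow library measures a low gene less precisely.

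The members and gene lists were chosen with earlier results of these data known. Named genes are the members, the E protein and Id genes, in each list the 2 to 4 genes of smallest p (or highest level, as a tissue check), the 3 most correlated genes per member (at least 5 FPKM and an SD of 0.2) and genes at overlapping loci. Other genes were named after their values were seen, to check a tissue or a list: Dbh, Myf5, Pax7, Gata1, Pax1, Pax9, Uncx, Meox1, Meox2, Tbx18, Mkx, Egr1, Egr2, Myog, Neurog1, Neurod2, Atoh1, Cdh1, Hoxd11 and Osr1. Alternatives changed the pseudocount, filter, scaling, weights, prefix term and libraries; the relations without deleted replicate 2 or wildtype replicate 3, or with prefix means subtracted, were added after seeing the data. The values of 1 marker gene are not reported here.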

Additional observations from a re-analysis of the deposited data

Results flagged for a closer look

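The 4 wildtype libraries were examined in 130 genes, the members, their partners and the list genes tested. In 11 of them, 1 library lay far from the other 3 by Dixon's test at the 95% level, which chance alone does in about 1 of 20 groups. The 11 include 3 of the 17 members, E protein, Id and overlapping genes. Tcf21 was at 177 FPKM in wildtype replicate 3, against 122 to 131 FPKM in the other wildtype libraries. Id3 was at 344 FPKM in the same library, against 261 to 263 FPKM, and Id2 was at 175 FPKM in wildtype replicate 2, against 208 to 213 FPKM. Of the other 8, list genes, wildtype replicate 3 was high in Col1a1 (968 FPKM), Ecm1 (114 FPKM), Snai1 (19.2 FPKM) and Epor (4.95 FPKM). Wildtype replicate 2 was low in Pdgfra (42.8 FPKM) and Osr1 (7.23 FPKM) and high in Nphs1 (5.61 FPKM), and wildtype replicate 1 was high in Acta1 (0.866 FPKM). Groups of 3, such as the deleted libraries, were not examined in this way.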

How the results depend on the processing

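The count of genes past the threshold was 0 in both directions under every alternative run except 2: it was 4 higher with no filter on the mean (Gm10640, Ndufs5, Pgc and Tmprss11bnl) and 1 higher with a weight per library (9130015A21Rik); the cause was not tested. None of these is a bHLH gene. The count at an unadjusted p under 0.05, 605 with all libraries, was 984 with no filter, 394 at a mean of at least 5 FPKM (fewer genes tested) and 1141 with a weight per library. Leaving out 1 library gave 250 (without deleted replicate 2) to 1473 (without deleted replicate 1), and 336 without wildtype replicate 4. No member passed the threshold under any alternative that gave it an adjusted p; within a prefix none was computed, and Msc had one only with no filter. The signs of Tcf21 (-0.47 to -0.03 without 1 library), Scx (-1.39 to -0.42) and Msc held under all run. Signs turned for Twist1 within BI (-0.016), Hand2 within BI (-0.13), Tal1 within BI (-0.19), Tcf15 within BI (-0.28), Hand1 within BM (1.201) and Twist2 within BM (0.23). Twist2 also turned with median-of-ratios scaling (0.039), quantile normalization (0.026) and a weight per library (0.0525). Without 1 library the differences ran from -0.19 to 0.08 for Twist2, -0.15 to 0.43 for Tcf15, -0.38 to 0.36 for Hand1 and -0.0067 to 0.24 for Tal1. With a weight per library the Scx difference was -0.53. No paired analysis was possible because the labels carry no replicate numbers.

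Depth limits Msc and Hand1 most, with as few as 5 and 9 inferred fragments in a library. The 7 libraries leave wide intervals for Hand2, Hand1 and Scx.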

Other observations

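Some members moved with marker lists outside the fixed relations, as descriptions over 7 libraries chosen after the values were seen. Hand1 and Hand2 had r = 0.948 and 0.815 with the mean of the sympathetic list, which was drawn up for Hand2. Scx had r = 0.911 with the nephron progenitor list and 0.887 with Tcf21, both of which were lowest in deleted replicate 2, while Hand2 had r = -0.808 with Scx. Tcf15 had r = 0.891 with the erythroid list. Twist1 had r = 0.819 with the tendon list, which includes collagens that most mesenchyme makes. The cause of this relation was not tested. The mix of cells in each culture was not measured.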
